A study of Mus musculus with 24 samples.

Results

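The ribosome-free pool of a polysome gradient was compared between NIH/3T3 cells given halofuginone and cells given vehicle. The 6 ribosome-free libraries, 3 a treatment, were chosen from the 24 libraries of the study by the gradient fractions and the treatment named in the headers of the count table. NIH/3T3 is an established, immortal line of mouse embryonic fibroblasts. The cells grew in DMEM with 10% bovine calf serum and received 100 nM halofuginone, per the labels, or an equal volume of PBS, for 24 h at 37 °C. The other 18 libraries hold light polysomes, heavy polysomes and total RNA of the same 2 treatments, 3 libraries a group.

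Halofuginone blocks the proline site of Eprs, the enzyme that charges the tRNAs of glutamate and proline. Uncharged tRNA activates the kinase Gcn2, which slows the start of translation at most mRNAs, while that of Atf4, a transcription factor for amino acid supply, is translated more. In a gradient, mRNAs that carry no ribosome stay near the top with the single ribosomal subunits, so this pool holds mRNAs that await translation, mRNAs kept from it and mRNAs on their way to decay. The comparison asks which transcripts took a larger or smaller share of that pool after the drug.

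The headers sort the libraries into pairs by a tag. The pair called A here carries a date-like tag and pooled gradient fractions 1 to 2, and the header of its halofuginone library gives 50 nM where the labels give 100 nM. The pairs of tags 2 and 4 pooled fractions 1 to 5. The dose of pair A is not settled here, and pair A differs from the other pairs in both fractions and header dose. Same-tag libraries deviated together from their group means, with correlations across 11960 genes of 0.898, 0.79 and 0.774 for tags A, 2 and 4. The study's design text calls the triplicates biological, but no source used here says that each tag had its own cultures. The p-values therefore reflect how these libraries scatter, and some of that scatter may be technical.

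Depth ran from 10.3 to 17.5 megacounts assigned to genes. All 10 fibroblast markers reached 5 CPM (counts per megacount, scaled by TMM) in at least 1 library, with summed levels of 3430 to 5130 CPM in vehicle and 2860 to 4890 CPM with halofuginone. No epithelial (0 of 5) or endothelial (0 of 5) marker reached that level. Of 6 leukocyte markers 1 did, the receptor gene Cd14, and Ptprc, which marks all leukocytes, was at 0 in 5 of the 6 libraries. Of 5 adipocyte markers, Lpl and Fabp4 did, while Adipoq and Cidec were at 0 in all 6.

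The pair of tag 4 stood apart. The log2 ratio of halofuginone to vehicle within a pair, taken on CPM + 1, was set beside the same ratio in the polysome pairs of the same tag. Across 11811 genes pair A correlated with its light polysome pair at 0.631 and pair 2 at 0.471, but pair 4 at -0.0388. Against heavy polysomes, across 11491 genes, the values were 0.573, 0.267 and -0.0346. Pairs with the same tag may share a lysate, and genes are not independent replicates. In pair 4 only 22 genes were at least 2-fold higher and 42 at least 2-fold lower with halofuginone, against 96 and 140 in pair A and 118 and 96 in pair 2. Car6, the gene with the largest rise, went from 7.41 to 8.16 CPM in pair 4, whereas the polysomes labelled with tag 4 went from 12.2 to 620.0 CPM (light) and from 1.88 to 148.6 CPM (heavy). Across genes the 2 ribosome-free libraries labelled tag 4 therefore did not show the difference that the polysome libraries of that tag showed, although single genes did differ between them, such as Il6 (6.82 to 3.52 CPM). Whether the labels of these 2 libraries hold was not tested, and every value fitted with all 3 pairs carries that doubt. Main results are given with and without them.

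**Figure D1:**
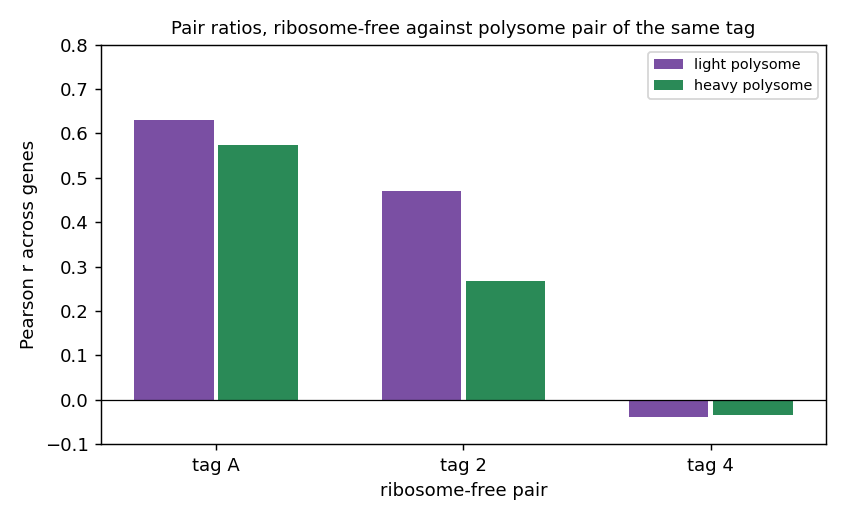
Pearson correlation across genes (vertical axis) between the halofuginone-to-vehicle log2 ratios of each ribosome-free pair (horizontal axis) and those of the light or heavy polysome pair of the same tag. Bars are single values with no error; pairs A and 2 lie between 0.267 and 0.631, and pair 4 lies just under 0 in both.

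With all 3 pairs, 15 of 11960 genes (0.125%) passed an adjusted p of 0.05 in edgeR's quasi-likelihood test with the tag as a block. Of these 12 were higher with halofuginone (0.1%) and 3 lower (0.0251%). At an unadjusted p under 0.05 there were 1002 (8.38%), 463 higher (3.87%) and 539 lower (4.51%). Fitted values lay above 0 in 51.2% of genes and below 0 in 48.8%. Without the tag as a block edgeR called 0 of 11960 genes, with 30 at an unadjusted p under 0.05 (0.251%), 19 higher (0.159%) and 11 lower (0.092%). DESeq2 with the block called 22 of the 5442 genes to which it gave an adjusted p (0.404%), 13 higher (0.239%) and 9 lower (0.165%). Without the tag 4 libraries, edgeR called 269 of 12384 genes (2.17%), 104 higher (0.84%) and 165 lower (1.33%), and all 15 of the first set were among them. At an unadjusted p under 0.05 there were then 1695 (13.7%), 776 higher (6.27%) and 919 lower (7.42%), and 50.9% of fitted values lay above 0 and 49.1% below. Of the 262 that could be tested in both fits, the median size of the log2 ratio was 0.911 in pair A, 0.831 in pair 2 and 0.18 in pair 4, and pair 4 had the sign of the fit in 151. Pairs A and 2 chose these genes, so smaller ratios in pair 4 are partly built into the choice. Without the tag as a block the fit without tag 4 called 0 of 12384 genes, so its 269 calls depend on the block. They rest on pairs A and 2, which differ in fractions and header dose. The fit with all pairs leaves 2 residual degrees of freedom, and that without tag 4 leaves fewer. Standard errors and p-values without tag 4 therefore lean on variance shared across genes. In this bulk RNA, fewer cells that make a transcript and less of it per cell cannot be told apart, and every value is a share of the pool.

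The genes that rose most were Car6, which encodes a secreted carbonic anhydrase, and Cdsn, which encodes corneodesmosin, an adhesive protein of the outer skin. Car6 (chromosome 4, 150187015 to 150201332 in GRCm38) stood at 1.05, 0.486 and 7.41 CPM in the vehicle libraries of tags A, 2 and 4 and at 285, 58.8 and 8.16 CPM with halofuginone. The groups did not overlap, but the halofuginone library of tag 4 lay barely above its partner, while the other halofuginone libraries were far above theirs. The fitted log2 fold change of Car6 was 4.64 ± 0.87 (adjusted p = 0.0363 in edgeR), and 7.79 ± 0.29 without tag 4. Cdsn (chromosome 17, 35552128 to 35557180) had 3.1, 3.69 and 6.99 CPM in vehicle and 69.9, 28.9 and 10.3 CPM with halofuginone. All 3 halofuginone libraries lay above all 3 vehicle libraries, with a log2 fold change of 2.71 ± 0.41 (adjusted p = 0.00726 in edgeR) and of 3.81 ± 0.27 without tag 4.

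Gdap1l1, a relative of the mitochondrial fission factor Gdap1 (chromosome 2, 163438476 to 163455324), had 1.61, 0.583 and 4.83 CPM in vehicle and 38.5, 6.54 and 5.52 CPM with halofuginone, a log2 fold change of 2.61 ± 0.50 (adjusted p = 0.0363 in edgeR). P2rx3, an ion channel opened by ATP (chromosome 2, 84998583 to 85037462), had 3.41, 6.61 and 21.9 CPM against 43.3, 30.9 and 22.6 CPM, a log2 fold change of 1.89 ± 0.38 (adjusted p = 0.0459 in edgeR). Without tag 4 the values were 4.31 ± 0.31 for Gdap1l1 and 2.94 ± 0.26 for P2rx3. For both genes the vehicle library of tag 4 was the highest of the vehicle libraries and nearly level with its partner. Angptl6, a secreted angiopoietin-like protein (chromosome 9, 20873808 to 20879727), had 6.19, 2.82 and 6.57 CPM in vehicle and 40.3, 9.48 and 7.44 CPM with halofuginone, a log2 fold change of 1.61 ± 0.31 (adjusted p = 0.0363 in edgeR). Tenm4, a teneurin of the cell surface (chromosome 7, 96171246 to 96911093), was low throughout, at 0.557, 0.972 and 0.999 CPM against 3.15, 6.17 and 2.08 CPM, with a log2 fold change of 2.09 ± 0.42 (adjusted p = 0.0459 in edgeR). Without tag 4 Angptl6 had 2.34 ± 0.25 and Tenm4 2.56 ± 0.45. Tenm4 lay under the level of 5 CPM that the rule for named genes asks for and is given because it is 1 of the 15 called. Without pair A the calls of Gdap1l1, Angptl6 and Tenm4 were lost (adjusted p = 0.152, 0.461 and 0.0585 in edgeR), and without pair 2 that of Tenm4 (0.565). DESeq2 with the block did not call Car6, Cdsn or P2rx3 (adjusted p = 0.0599, 0.306 and 0.598).

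Both other named risers outside the ribosomal group act in mitochondria. Pycr1, which makes proline in the last step of its synthesis (chromosome 11, 120635712 to 120643769), had 17.1, 5.35 and 11.4 CPM in vehicle and 49.3, 11 and 16.3 CPM with halofuginone. It was higher in all 3 pairs, with log2 ratios of 1.48, 0.91 and 0.48, although the groups overlapped. Its log2 fold change was 1.05 ± 0.19 (adjusted p = 0.0342 in edgeR), and 1.33 ± 0.21 without tag 4. Lonp1, a protease of the mitochondrial matrix (chromosome 17, 56614297 to 56626887), had 44.5, 26.5 and 20.6 CPM against 98.5, 41.3 and 30.2 CPM, with a log2 fold change of 0.79 ± 0.16 (adjusted p = 0.0459 in edgeR), and 0.90 ± 0.18 without tag 4. In both genes the halofuginone library of each tag lay above its own vehicle library, while tags differed in level. Without pair A neither was called (adjusted p = 0.317 and 0.251 in edgeR), and without pair 2 Lonp1 was not (0.0738).

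The 3 genes that fell encode secreted proteins. Il6, the cytokine interleukin 6 (chromosome 5, 30013114 to 30019981), had 10.6, 13.6 and 6.82 CPM in vehicle and 1.64, 2.39 and 3.52 CPM with halofuginone, and the groups did not overlap. Its log2 fold change was -2.03 ± 0.30 (adjusted p = 0.00726 in edgeR), -2.61 ± 0.28 without tag 4, and its call held in edgeR when any 1 pair was left out. Cck, which encodes the peptide hormone cholecystokinin (chromosome 9, 121489824 to 121495694), ranged widely between tags, at 445, 155 and 11.7 CPM in vehicle and 99.9, 77.6 and 7.52 CPM with halofuginone. It was lower in each pair, with log2 ratios of -2.14, -0.99 and -0.57, and its log2 fold change was -1.33 ± 0.21 (adjusted p = 0.00726 in edgeR and 0.298 in DESeq2). Without tag 4 it was -1.59 ± 0.22. Thbs1, the matrix protein thrombospondin 1 that can activate latent TGF-beta (chromosome 2, 118111876 to 118127133), had 113, 52 and 63 CPM against 53.7, 28.9 and 47.8 CPM. Its log2 fold change was -0.78 ± 0.16 (adjusted p = 0.0459 in edgeR), -0.97 ± 0.17 without tag 4, and the call was lost without pair A (0.107) or pair 2 (0.192).

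**Figure D2:**
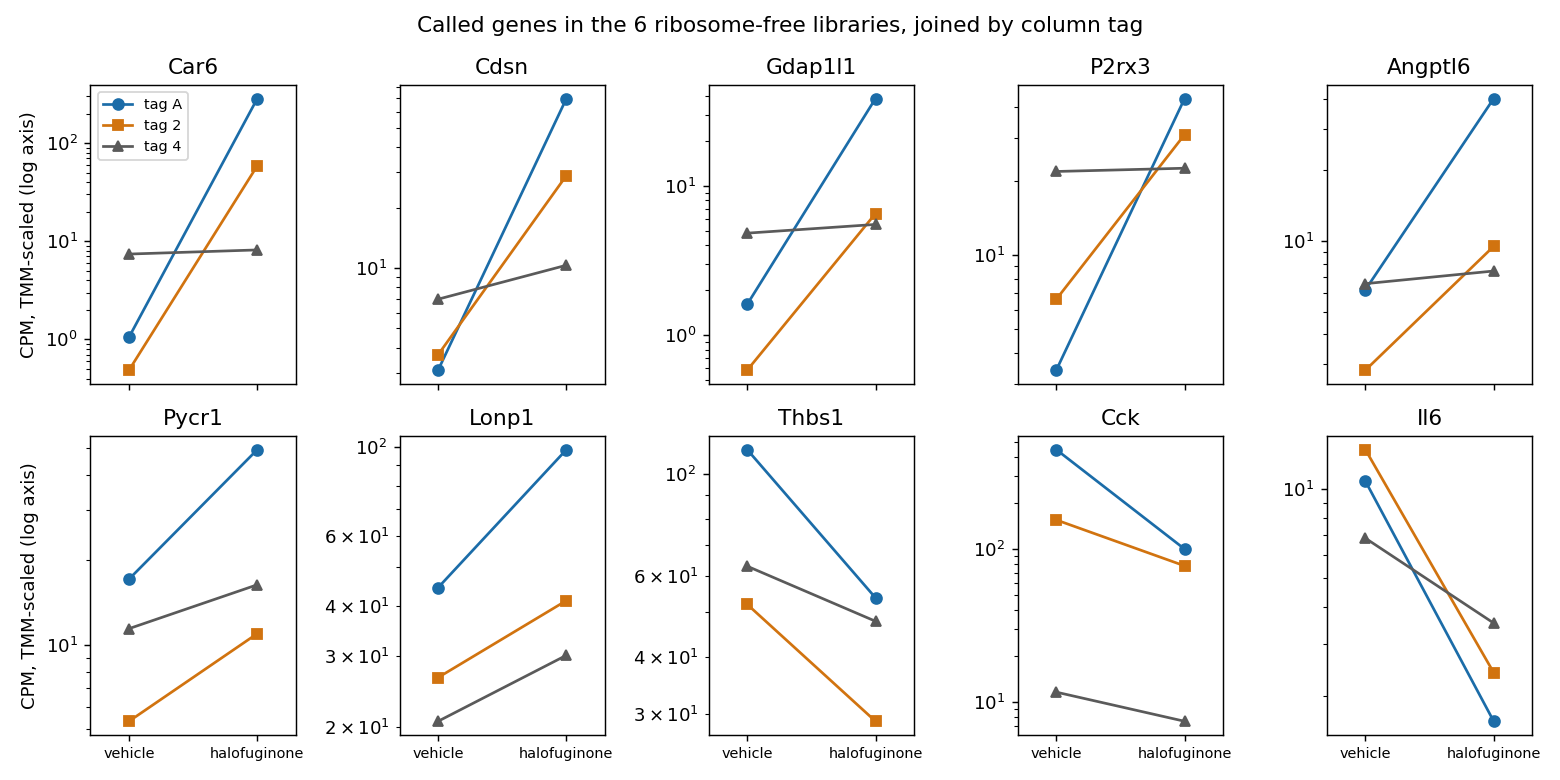
TMM-scaled CPM on log axes (vertical) in the vehicle and the halofuginone library of each tag (horizontal, joined by a line) for 10 called genes. The lines of all 3 tags go the same way in every panel, and that of tag 4 is nearly flat for Car6 (7.41 to 8.16) and P2rx3 (21.9 to 22.6).

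The next 5 falls by p, which did not pass the adjusted threshold in edgeR, were Serpina3h, Tm7sf2, Xbp1, Fos and Map1a. Serpina3h, of a family of serine protease inhibitors, had a log2 fold change of -0.79 ± 0.17 (adjusted p = 0.0724 in edgeR). Tm7sf2, a sterol reductase, had 34.7, 17.9 and 10.2 CPM in vehicle and 9.32, 7.36 and 10.1 CPM with halofuginone, and its tag 4 pair was level. Xbp1, a transcription factor of the unfolded protein response, had 119, 78.3 and 54.3 CPM in vehicle and 42, 38.8 and 52.3 CPM with halofuginone. Its log2 fold change was -0.87 ± 0.20 (adjusted p = 0.0802 in edgeR), and DESeq2 with the block called it lower (0.0487). Map1a, a microtubule-associated protein, had a log2 fold change of -0.75 ± 0.18 and was lower in every pair, at 19.1, 15.2 and 19.6 CPM against 9.58, 9.48 and 13.2 CPM. Without tag 4 all 5 were called lower, Xbp1 at -1.27 ± 0.17 (adjusted p = 9.95e-05 in edgeR).

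The transcription factor Atf4 raises genes of amino acid supply and stress. Its targets often carry a composite C/EBP-ATF element in the promoter, and its core was searched as TGATGNAA on both strands in the 300 bases around the start site (250 before to 50 after). Of 8892 tested genes with a promoter in RefSeq (GRCm38.p6), 221 held it (2.49%), against 11 of 33 on the Atf4 list (33.3%) and 5 of 12 cytosolic aminoacyl-tRNA synthetases (41.7%). The match describes the letters and shows no binding. The promoters of Pycr1, Slc7a11, Chac1 and Aars, all on the Atf4 list, are shown as examples of the match. Capitals mark the match, which reads TTGCATCA where it lies on the opposite strand. The Slc7a11 window holds another match, in lower case, further toward the start.
Pycr1, chr11:120643804-120643891, minus strand: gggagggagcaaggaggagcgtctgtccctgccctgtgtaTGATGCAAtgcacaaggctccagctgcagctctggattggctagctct
Slc7a11, chr3:50443632-50443719, minus strand: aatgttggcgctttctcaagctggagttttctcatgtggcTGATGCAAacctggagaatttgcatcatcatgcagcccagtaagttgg
Chac1, chr2:119351009-119351096, plus strand: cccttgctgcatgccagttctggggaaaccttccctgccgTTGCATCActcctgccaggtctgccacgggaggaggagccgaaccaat
Aars, chr8:111033690-111033777, plus strand: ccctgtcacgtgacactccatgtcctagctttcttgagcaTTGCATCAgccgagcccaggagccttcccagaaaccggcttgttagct

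Of the 42 genes on this list 38 were tested. With all pairs 1 was called, Pycr1, and 35 had a fitted log2 fold change above 0 (92.1%, against 51.2% of all genes tested), with a median of 0.30 against 0.006. The pair medians were 0.87, -0.005 and 0.038 for tags A, 2 and 4, so only pair A stood clear of 0. Without pair A the median was 0.002. Without tag 4 it was 0.51, with 35 of 39 above 0 (50.9% of all genes). There were then 6 called higher (0.84% of all genes), Pycr1, Slc7a11, Aldh1l2, Shmt2, Mthfd1l and Phgdh, and 1 lower (1.33%), Cebpb. Those 6 serve proline synthesis, cystine import, and the making of serine and one-carbon units in the cytosol and mitochondria, whereas Cebpb is a transcription factor of the C/EBP family. Slc7a11, the cystine importer, had 0.371, 0.194 and 1.17 CPM in vehicle and 3.78, 2.02 and 1.2 CPM with halofuginone, so its vehicle level in tags A and 2 rests on 6 and 2 counts. Aldh1l2, a mitochondrial folate enzyme, had 5.14, 16.5 and 31.5 CPM in vehicle and 24.4, 60 and 26.9 CPM with halofuginone. It was higher in pairs A and 2 and lower in pair 4, with 2.03 ± 0.19 without tag 4 (adjusted p = 2.29e-07 in edgeR).

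Several stress regulators of the same list differed between pairs in direction. The polysome pairs of tag 2 also stood apart, with medians of this list of -0.142 (heavy) and -0.148 (light). Those of tag A had 1.04 and 0.849 and those of tag 4 had 1.22 and 1.195, while the total RNA pair of tag 2 had 1.916. Chac1, which degrades glutathione, had 25.1, 32 and 54 CPM in vehicle and 59.3, 12 and 60.1 CPM with halofuginone, higher in pair A and lower in pair 2. Ddit3, the transcription factor CHOP, had 184, 137 and 150.5 CPM against 385, 73 and 187 CPM, again higher in pair A and lower in pair 2. In the polysomes of tag 2 Ddit3 went from 69.8 to 37.8 CPM (heavy) and from 281.5 to 166.2 CPM (light). Chac1 went there from 40.8 to 23.1 and from 92.35 to 24.45 CPM, whereas Trib3 rose in heavy (50.8 to 74.3) and fell in light polysomes (44.6 to 35.1). Trib3, a pseudokinase that binds Atf4, had 7, 14.2 and 48.9 CPM against 77.2, 11.3 and 49.3 CPM and was higher in pair A by 3.29 on the log2 scale. Its fitted log2 fold change of 0.98 ± 0.42 was not called (adjusted p = 0.543 in edgeR), nor was it without tag 4 (1.68 ± 0.47, 0.06). It was called without pair 2 (1.64, 0.0149) and with no filter on low counts (0.96, 0.000123). Asns, asparagine synthetase, had 99.9, 52.2 and 64.3 CPM against 195, 46.8 and 60.9 CPM, and Sesn2, a sestrin that restrains mTORC1, had 22.4, 25.8 and 36 CPM against 37.9, 24.1 and 36.8 CPM. Both were higher in pair A and slightly lower in pair 2. Atf5, a related transcription factor, had 243, 259 and 545 CPM against 489, 339 and 525 CPM and a log2 fold change of 0.45 ± 0.18 (adjusted p = 0.487 in edgeR). Atf4 itself had log2 ratios of 0.24, -0.42 and 0.031 and a fitted value of -0.048 ± 0.18 (adjusted p = 0.974 in edgeR). Of 16 mRNAs with regulatory upstream reading frames none was called with all pairs, and the median was 0.15. Without tag 4 Eprs was called higher and Cebpb lower among them, and the median was 0.08.

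The target of the drug, Eprs, had 20.4, 22.9 and 37.7 CPM in vehicle and 37.8, 32.7 and 36.8 CPM with halofuginone. It was higher in pairs A and 2 and level in pair 4, with a log2 fold change of 0.45 ± 0.17 (adjusted p = 0.42 in edgeR) that was called without tag 4 (0.70 ± 0.18, edgeR adjusted p = 0.0384). Of 20 cytosolic aminoacyl-tRNA synthetases, which load tRNAs with amino acids, none was called with all pairs. At an unadjusted p under 0.05, 5 were higher (3.87% of all genes were), and 18 lay above 0 (51.2% of all genes did). Their median was 0.204. By pair the medians were 0.578, 0.084 and 0.068. Without tag 4, Eprs, Vars (valine) and Wars (tryptophan) were called higher (0.84% of all genes were) and the median was 0.229. Wars had 23.3, 15.1 and 14.4 CPM against 52.7, 18.7 and 20.4 CPM and log2 ratios of 1.15, 0.29 and 0.47. Of 17 mitochondrial synthetases none was called in either fit, with a median of 0.145, and Tars2 had the smallest p (log2 fold change 0.42 ± 0.16). Of 22 amino acid transporters none was called with all pairs, with a median of 0.16, and Slc7a11 alone without tag 4.

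Messages for the translation machinery often begin with a 5′ terminal oligopyrimidine (TOP) tract, through which mTORC1 controls their entry into polysomes. RefSeq start sites were searched for C followed by at least 4 pyrimidines. Of the same 8892 genes 272 had such a start (3.06%), against 14 of 57 ribosomal protein genes (24.6%) and 4 of 18 translation factors and other known TOP mRNAs (22.2%). Some ribosomal protein genes, and the retrogene Rps27rt that was called, are shown in 30 bases centred on the start, with the tract in capitals, because nearly all members of this group lay above 0.
Rpl35a, chr16:33056467-33056496, plus strand: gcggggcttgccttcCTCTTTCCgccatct
Rps6, chr4:86857353-86857382, minus strand: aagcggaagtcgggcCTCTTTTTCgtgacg
Rps27, chr3:90213634-90213663, minus strand: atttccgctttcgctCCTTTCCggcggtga
Rps27rt, chr9:114982725-114982754, minus strand: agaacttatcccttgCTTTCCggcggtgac

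Of 78 ribosomal protein genes tested none was called with all pairs or without tag 4. At an unadjusted p under 0.05, 3 were higher with all pairs (3.87% of all genes were), but 77 lay above 0 (98.7%, against 51.2% of all genes). The median log2 fold change was 0.26, and 48 were higher in all 3 pairs (61.5%, against 14.7% of all genes). The pair medians were 0.077, 0.57 and 0.136 for tags A, 2 and 4, and the median was 0.108 without pair 2 and 0.327 without tag 4. Most of these genes also lay above 0 in heavy polysomes (75 of 78, median 0.42), light polysomes (63, 0.182) and total RNA (51, 0.156). The rise was thus not particular to the ribosome-free pool, and a shift of the list between pools was not tested. Rpl35a had the smallest p, at 224, 96.5 and 73.4 CPM in vehicle and 263, 189.8 and 82.3 CPM with halofuginone (log2 fold change 0.46 ± 0.16, edgeR adjusted p = 0.36). Translation factors and other TOP mRNAs lay above 0 in 21 of 24 (51.2% of all genes did), with a median of 0.17 (0.264 without tag 4) and none called. In heavy polysomes 20 of them lay above 0 (median 0.257), in light polysomes 17 (0.175) and in total RNA 16 (0.246). Eif3k, a subunit of initiation factor 3, had 295, 111 and 145 CPM against 317, 184 and 167 CPM.

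Copies of ribosomal protein genes were called while their parents were not. Rps27rt (chromosome 9, 114982366 to 114982739) had 27.4, 7.68 and 45.4 CPM in vehicle and 44.6, 20.3 and 70 CPM with halofuginone, a log2 fold change of 0.87 ± 0.17 (adjusted p = 0.0363 in edgeR). Without tag 4 it had 0.99 ± 0.20, and its call was lost without pair 2 (0.355). Its parent Rps27 had 3878, 2549 and 2958 CPM in vehicle and 4422, 3793 and 3365 CPM with halofuginone, a log2 fold change of 0.32 ± 0.19 (adjusted p = 0.715 in edgeR). Rps13-ps2, a processed pseudogene, had 10.3, 8.65 and 66.3 CPM in vehicle and 51.9, 20.5 and 91.5 CPM with halofuginone, a log2 fold change of 1.31 ± 0.23 (adjusted p = 0.024 in edgeR) that DESeq2 did not call (0.406), and 1.83 ± 0.23 without tag 4. Its parent Rps13 had 1813, 873 and 1007 CPM and 2031, 1392 and 1111 CPM, with 0.33 ± 0.18. Whether copy and parent differ was not tested. Reads of near-identical copies can be assigned to either, so the values of the copies are uncertain. Gm11361, a predicted gene, rose by 0.92 ± 0.18, and Gm26917, a predicted long noncoding RNA, by 1.22 ± 0.21 (adjusted p = 0.0363 and 0.024 in edgeR), calls that were lost without pair 2 (0.301 and 0.195). Over all 351 pseudogenes tested the median log2 fold change was 0.28 (0.006 over all genes). Without tag 4, 25 of 473 were called higher (0.84% of all genes were) and 4 lower (1.33%).

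Messages of cholesterol synthesis lay below 0 throughout. None of 23 was called with all pairs, but all 23 had a fitted log2 fold change below 0 (median -0.37), and 16 had an unadjusted p under 0.05, where 4.51% of all genes were lower at that p. The pair medians were -0.81, -0.29 and -0.017, and 13 genes were lower in all 3 pairs (13.5% of all genes were). Without tag 4 the median was -0.58 and 7 were called lower (1.33% of all genes were), Mvk, Mvd, Fdps, Lss, Tm7sf2, Nsdhl and Insig1. Fdps, which makes farnesyl diphosphate, had 34.8, 20.3 and 13 CPM in vehicle and 17.1, 9.85 and 12 CPM with halofuginone, with -1.04 ± 0.19 without tag 4 (adjusted p = 0.00358 in edgeR). Insig1, which holds back the activation of sterol regulators, had 97.9, 151 and 129 CPM against 41.8, 100.0 and 149.8 CPM, lower in pairs A and 2 and higher in pair 4. Of 14 genes of fatty acid synthesis none was called in either fit, and the median was -0.096 (-0.241 without tag 4). Scd1, a desaturase, had a log2 fold change of -0.33 ± 0.14 (adjusted p = 0.543 in edgeR).

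Immediate early genes are those that serum and stress switch on within minutes. Of 25 tested none was called with all pairs, 21 lay below 0 (48.8% of all genes did) and the median was -0.34. In all 3 pairs 16 were lower (13.5% of all genes were). Here pair 2 had the lowest median (-0.67, against -0.285 in pair A and -0.078 in pair 4). Without tag 4, Fos, Egr1, Nr4a1, Dusp1, Zfp36 and Btg2 were called lower (1.33% of all genes were) and none higher, and the median was -0.531. Fos, a subunit of AP-1, had 25.4, 12.4 and 19.5 CPM in vehicle and 13.1, 4.88 and 15.8 CPM with halofuginone, with -0.83 ± 0.19 (adjusted p = 0.0913 in edgeR) and -1.12 ± 0.22 without tag 4 (adjusted p = 0.00613 in edgeR). Zfp36, which directs AU-rich messages to decay, had 154, 175 and 131 CPM against 88.1, 77.4 and 128 CPM, and its groups did not overlap, as was so for 0.853% of all genes in that direction. Btg2, an inhibitor of proliferation that is also on the p53 list, had 87.5, 55.2 and 86.5 CPM against 54.7, 16.2 and 77.9 CPM.

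Among 23 inflammatory genes Il6 was called with all pairs, and the median was -0.325, while the pairs had medians of -0.688, -0.341 and -0.012. Without tag 4 the median was -0.57 and 8 were called lower (1.33% of all genes were). These were Il6, the chemokines Ccl2, Ccl7, Cxcl1, Cxcl5 and Cxcl12, the cytokine Lif and the NF-kappaB inhibitor Nfkbia. Ccl2, which attracts monocytes, had 1108, 776 and 306 CPM in vehicle and 472, 458 and 265 CPM with halofuginone, and its adjusted p was 0.104 with all pairs and 0.0157 without tag 4 in edgeR. Lcn2, an iron-binding protein of innate immunity, was called higher without tag 4. It had 3.34, 10.9 and 3.41 CPM in vehicle and 6.93, 19.5 and 7.52 CPM with halofuginone, and its tag 4 pair moved as far as the others (log2 ratios 0.87, 0.79 and 0.95), yet with all pairs it missed the threshold (adjusted p = 0.0642 in edgeR). Beside these genes the summed leukocyte markers were 15.2 to 17.4 CPM in vehicle and 7.43 to 14.2 CPM with halofuginone, of which Cd14 made 12.2 to 15.1 and 4.91 to 11.5. The part of that difference in the inflammatory genes was not tested. Of 18 interferon response genes none was called with all pairs, and the median was -0.158 (-0.2 without tag 4). Isg20, an exonuclease, had -0.92 ± 0.19 without tag 4 (adjusted p = 0.0112 in edgeR).

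Most collagens and other matrix messages lay below 0. Of 16 collagens tested (25 on the list) none was called with all pairs, 15 lay below 0 (48.8% of all genes did) and the median was -0.25. Without tag 4 it was -0.388. Col1a1, a chain of type I collagen, had 312, 112 and 504 CPM in vehicle and 215, 77.4 and 458 CPM with halofuginone, lower in each pair, with -0.40 ± 0.15 (adjusted p = 0.45 in edgeR) and -0.54 ± 0.18 without tag 4 (0.118). Col1a2, its partner chain, had log2 ratios of -0.26, 0.14 and -0.081, and Col3a1, of type III collagen, -0.28, -0.37 and -0.17, neither called. Col6a1, of type VI collagen, was called lower without tag 4 (-0.73 ± 0.18, edgeR adjusted p = 0.0309), while its tag 4 pair was level. Of 34 matrix proteins other than collagens, Thbs1 was called with all pairs, and without tag 4 Postn (periostin) and Cyr61 also were. Fn1, fibronectin, had 754, 262 and 169 CPM against 671, 301 and 144 CPM and -0.067 ± 0.16. Lox, which cross-links collagen, had 293, 820.1 and 2135 CPM against 159, 528 and 1699 CPM, with -0.61 ± 0.17 (adjusted p = 0.166 in edgeR). It was called lower by DESeq2 with all pairs (adjusted p = 0.023) and by edgeR without tag 4 (0.0418). Acta2, smooth muscle actin and a marker of contractile fibroblasts, had 3799, 22.6 and 144 CPM against 5131, 28.4 and 159 CPM, so tags differed far more than treatments. Its log2 ratios were 0.43, 0.32 and 0.14. The 23 contractile and TGF-beta genes had no call in either fit and a median of 0.14 (0.149 without tag 4), and Myh9, a nonmuscle myosin, had 0.38 ± 0.14.

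Cell cycle messages lay slightly above 0. None of 26 mitosis genes was called with all pairs and 24 were above 0 (51.2% of all genes were). Their median was 0.169, and the medians by pair were 0.094, 0.412 and 0.012. Top2a, a topoisomerase that untangles chromosomes, had 58.4, 63.3 and 58.8 CPM in vehicle and 73.7, 117 and 62 CPM with halofuginone (log2 fold change 0.43 ± 0.16, edgeR adjusted p = 0.392). Of 31 genes of DNA replication 28 lay above 0 (51.2% of all genes did), with a median of 0.138 and Fen1, a flap nuclease, at 0.53 ± 0.15. Without tag 4 the medians were 0.24 for mitosis and 0.207 for replication, and Prc1 and Mcm7 were called higher. Of 25 ER chaperone and degradation genes 18 lay below 0 (48.8% of all genes did), with a median of -0.145 (-0.239 without tag 4). Calr and Xbp1 were called lower and Ero1l higher without tag 4. Among 15 noncoding hosts of small nucleolar RNAs none was called with all pairs. Their median was 0.095, and the medians by pair were 0.262, -0.131 and 0.098. Without tag 4 Snhg8 was called higher (0.84% of all genes were) and Snhg18 lower (1.33%), with a median of 0.075. Snhg8 had 192, 134 and 103 CPM in vehicle and 338, 198 and 116 CPM with halofuginone. Its log2 fold change was 0.68 ± 0.18 without tag 4 (adjusted p = 0.0455 in edgeR). Neat1, the scaffold RNA of nuclear paraspeckles, had 32.8, 292 and 378 CPM against 26.9, 87.3 and 388 CPM, lower in pair 2 by far the most.

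**Figure D3:**
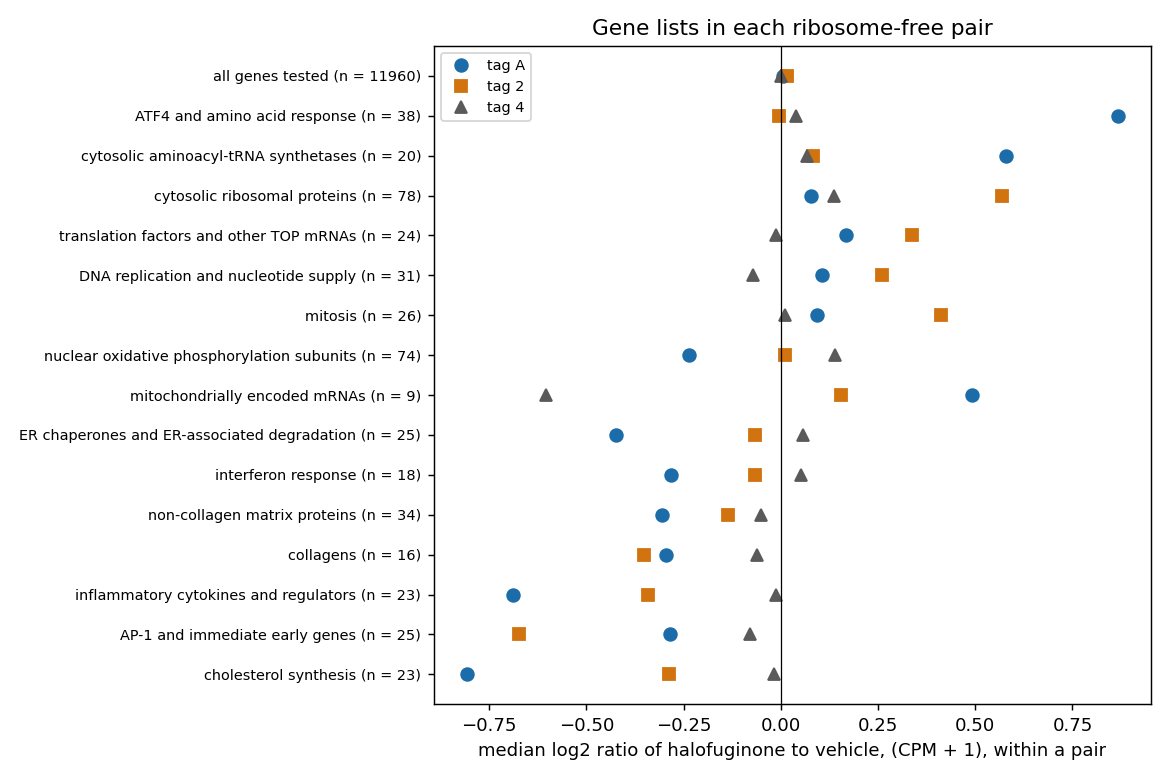
Median log2 ratio of halofuginone to vehicle within each pair (horizontal axis, log2 of CPM + 1) for 15 gene lists and for all genes tested (vertical axis, with the number of genes tested). Symbols mark the tags; cholesterol synthesis lies at -0.81, -0.29 and -0.017 for tags A, 2 and 4, ribosomal proteins at 0.077, 0.57 and 0.14, and the Atf4 list is far from 0 in tag A alone.

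Other lists were those of mitochondrial ribosomal proteins (76 tested, median 0.004), nuclear subunits of oxidative phosphorylation (74, -0.031), p53 targets (21, 0.024), autophagy and lysosome (30, 0.008), nonsense-mediated decay factors (14, 0.121) and iron and polyamine messages (14, 0.062). Without tag 4 more members lay below 0 in some of them (49.1% of all genes did), 53 of 76 mitochondrial ribosomal proteins (median -0.066), 53 of 74 subunits of oxidative phosphorylation (-0.089) and 21 of 30 autophagy genes (-0.039). The medians of p53 targets (0.029), decay factors (0.118) and iron and polyamine messages (0.062) stayed above 0. None of their members was called with all pairs, and without tag 4 only the p53 targets Btg2 and Fas were, both lower. Mrps36 (log2 fold change -0.43 ± 0.18), Cox6a1 (-0.39 ± 0.17), Atg12 (-0.38 ± 0.15), and Oaz2 (0.38 ± 0.15) each had the smallest p of its list.

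RNAs made inside mitochondria took a large and uneven part of the pool. Their share of counts was 8.69%, 34.9% and 30.8% in vehicle and 11.1%, 32.9% and 22.9% with halofuginone for tags A, 2 and 4. The means were 24.8% ± 14.1 and 22.3% ± 10.9 (SD, n = 3 each), a difference within the spread of the libraries (exact two-sided permutation test p = 0.9, where the smallest p this design allows is 0.1). That test ignored the pairing by tag, so the spread it used includes the differences between tags. The pairs differed in direction, by 2.4, -1.93 and -7.87 percentage points, and without tag 4 the mean difference was 0.235. Of 9 mitochondrially encoded mRNAs none was called with all pairs and the median was -0.009, and the medians by pair were 0.493, 0.155 and -0.605. Without tag 4 the median was 0.392 over 10 mRNAs. mt-Nd6, the only one encoded on the light strand, had 7.93, 237 and 31.8 CPM in vehicle and 13.2, 837 and 33.5 CPM with halofuginone, and was called higher without tag 4 (1.35 ± 0.23, edgeR adjusted p = 0.0018). mt-Rnr1, the small ribosomal RNA of mitochondria, had log2 ratios of 0.39, 0.20 and -0.26. With mitochondrially encoded genes left out before scaling, 11 genes were called in place of 15. P2rx3, Lonp1, Tenm4 and Thbs1 then missed the threshold (adjusted p = 0.0597 in edgeR), as they did with median-of-ratios factors (0.0501).

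The rule for named genes was applied again without the tag 4 libraries, which was decided after their values were seen. Beyond the genes above, the largest rises were those of Taf7l, a testis relative of a TFIID subunit, Cox6a2, a heart and muscle subunit of cytochrome oxidase, and Sh2d6, an SH2 domain adaptor. Taf7l went from 0.231 to 15.3 and from 0.184 to 9.05 CPM in pairs A and 2, where the vehicle libraries are at the floor of counting, and was not tested with all pairs. Cox6a2 went from 0.462 to 20.7 and from 0.644 to 7.07 CPM, while pair 4 went from 5.08 to 4.96. Its log2 fold change was 4.71 ± 0.38 (adjusted p = 1.37e-08 in edgeR). Sh2d6 went from 1.16 to 11.1 and from 2.21 to 8.79 CPM, with 2.64 ± 0.32 and the opposite direction in pair 4 (from 4.33 to 2.48). mt-Co3 went from 0.0577 to 1.47 and from 0.368 to 195 CPM, a rise that rests on pair 2.

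The largest falls without tag 4, beyond Il6, Tm7sf2 and Cck, were Ifi27l2a, Fcor, Cfap100, Plat and Fabp4. Ifi27l2a, an interferon-induced gene, went from 15.5 to 3.12 and from 7.37 to 2.24 CPM in pairs A and 2 (-2.07 ± 0.27, edgeR adjusted p = 4.93e-05) and from 10.7 to 15.1 CPM in pair 4. Plat, tissue plasminogen activator, went from 10.4 to 2.88 and from 11.7 to 4.22 CPM (-1.67 ± 0.25) and from 10.2 to 13.2 in pair 4. Fabp4, a fatty acid carrier of adipocytes, went from 20.8 to 5.06 and from 6.17 to 3.53 CPM (-1.54 ± 0.27) and from 7.49 to 7.52 CPM in pair 4. Fcor, a corepressor of Foxo1, had -1.92 ± 0.29 and Cfap100, a protein of cilia, -1.87 ± 0.25. In all 5 genes the halofuginone library labelled tag 4 lay at or above its vehicle library, so none fell in every pair. With all pairs none of the 5 was called (adjusted p from 0.158 to 0.299 in edgeR).

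The 10 called genes that the rule named outside the ribosomal group had the same sign in the other kinds of RNA. Car6 had a log2 fold change of 6.44 ± 0.45 in light polysomes (adjusted p = 0.0347 in edgeR), 6.26 ± 0.22 in heavy polysomes (0.00127) and 7.38 ± 0.58 in total RNA (0.234). Pycr1 had 1.59 ± 0.37, 1.79 ± 0.25 and 2.10 ± 0.49, and Thbs1 had -2.03 ± 0.53, -2.08 ± 0.52 and -2.79 ± 0.71, none called. Light polysomes had 3 calls, all higher (0.0237% of 12632), Car6 and Gdap1l1 among them, and heavy polysomes 2, both higher (0.0164% of 12222). How the ribosome-free value stands to these depends on tag 4, since Car6 had 4.64 with all pairs and 7.79 without it, below and above its values in the other kinds. The copy Rps27rt had -0.18 ± 0.27 in heavy polysomes, opposite to its ribosome-free value. In total RNA the pair of tag A differed least between treatments. Trib3 went from 13.3 to 29.4, from 14.8 to 231 and from 13.3 to 215 CPM in its pairs of tags A, 2 and 3, and Cck went from 139.8 to 136, from 153 to 7.62 and from 151 to 5.61 CPM.

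**Figure D4:**
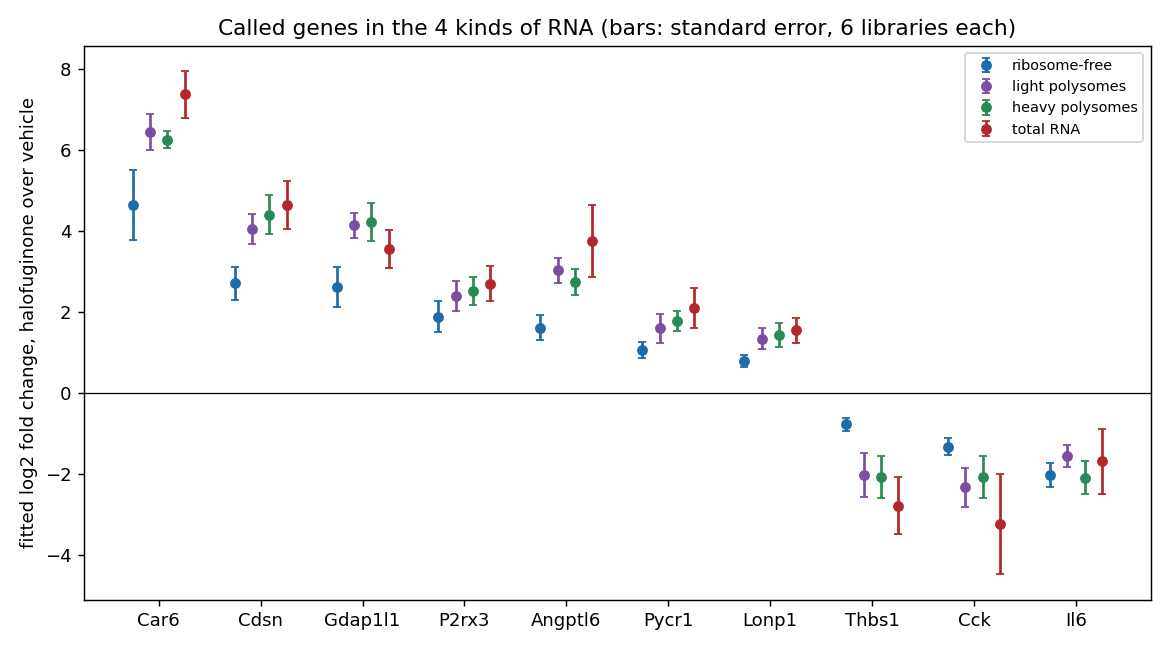
Fitted log2 fold change of halofuginone over vehicle (vertical axis) with its standard error (bars, 6 libraries in each fit) for 10 called genes (horizontal axis) in 4 kinds of RNA, marked by colour. Ribosome-free values, fitted with all 3 pairs, have the same sign as the others. That of Car6, 4.64 here, was 7.79 without tag 4.

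Whether the drug effect differed between kinds of RNA was tested over 12 libraries as an interaction. No gene was called for ribosome-free against total RNA (0 of 13465, smallest edgeR adjusted p = 0.416), heavy polysomes (0 of 13053, 0.177) or light polysomes (0 of 13109, 0.902). In simulated data these fits found 7%, 23% and 21% of planted differences of 1 on the log2 scale. For differences of 2 they found 76%, 92% and 96%. All were planted in genes with high counts and alike in every ribosome-free pair, unlike the pairs here. The shares found may thus be too high for these data. The lack of calls therefore does not show equal effects. At an unadjusted p under 0.05, 1508 differed from total RNA (11.2%), 844 higher in ribosome-free RNA (6.27%) and 664 lower (4.93%). Against heavy polysomes there were 763 (5.85%), 368 higher (2.82%) and 395 lower (3.03%), and against light polysomes 403 (3.07%), 185 higher (1.41%) and 218 lower (1.66%). Without the pairs of tag A, 5481 of 13408 genes differed between ribosome-free and total RNA, 2842 higher and 2639 lower. In that fit the ribosome-free effect rests on pairs 2 and 4, so the count carries the doubt about pair 4. The total RNA effect rests on the 2 pairs of tags 2 and 3. Their halofuginone libraries were close in level, such as Eprs at 1076 and 1093 CPM and Car6 at 197.3 and 183.8 CPM. Without the ribosome-free pair of tag 4 the counts were again 0 against light and heavy polysomes, and without tag 4 none differed from total RNA. Without tag 4 in both kinds, 1 gene differed from heavy and 2 from light polysomes. List medians are set side by side without a test. Mitosis genes had a median of 0.17 in ribosome-free RNA (0.24 without tag 4), -0.205 in heavy and -0.15 in light polysomes. In total RNA it was -1.05, where the pair medians were 0.022, -1.59 and -1.60 for tags A, 2 and 3. Cholesterol synthesis had -0.37 in ribosome-free RNA with all pairs (-0.582 without tag 4) against -2.48, -1.62 and -1.40 in total RNA, heavy and light polysomes.

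Transcript features were set beside the fold changes of 10693 genes with a complete coding sequence in the annotation, as a description across genes that share libraries. Coding length correlated with the fitted log2 fold change at a Spearman rho of 0.18, with 0.19 in pair A, 0.21 in pair 2 and -0.10 in pair 4. Of 5 groups of genes by coding length, the shortest had a median fitted value of -0.041 and the longest of 0.083. The rho for the other kinds of RNA was -0.02 (total), -0.066 (heavy) and 0.066 (light). GC content of the transcript had a rho of 0.32 in pair 4 against -0.15 in pair A and 0.021 in pair 2, so pair 4 also stood apart in composition. The share of proline codons, the amino acid whose tRNA the drug leaves uncharged, had a rho of 0.011, and the group of genes richest in them, of 5, had a median log2 fold change of 0.003.

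**Figure D5:**
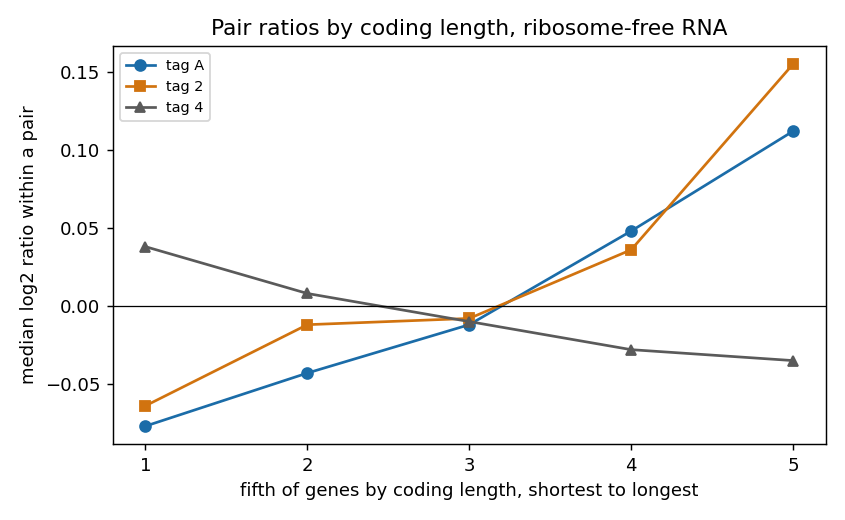
Median log2 ratio of halofuginone to vehicle within each ribosome-free pair (vertical axis) for 5 equal groups of genes ordered by coding length (horizontal axis, shortest to longest). Lines mark the tags; those of tags A and 2 go from -0.077 and -0.064 to 0.112 and 0.155, and that of tag 4 goes from 0.038 to -0.035.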

How the data were processed

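The authors deposited 1 table of counts for 49568 gene symbols in 24 libraries, 6 of them ribosome-free. Per the labels' protocols, RNA was taken with TRIzol and libraries came from a stranded kit that selects polyadenylated RNA. The submitters' processing notes name GRCm38.p5 as the build and, as tools, featureCounts of Subread 1.5.0p3, STAR 2.5.2b and Trimmomatic 0.36. How strand and reads with several matches were treated is not given here, so overlapping genes and copies are less certain. No spike-in is mentioned.

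Columns were matched to groups by header, not to single samples, and 0 columns were left unmatched. The main test was edgeR 4.0.16 (quasi-likelihood, R 4.3.3) with TMM scaling, its default expression filter, the tag as a block and a Benjamini-Hochberg threshold of 0.05. The standard error of a log2 fold change is its size over the root of F. CPM are TMM-scaled and pair ratios use CPM + 1. The pairing comes from the header tags and was checked by the correlation of deviations from group means (highest between different tags 0.246). No 2 libraries were identical, and all differed beyond counting noise. Coordinates and transcript features come from GENCODE M21 (47139 symbols found once). The fit was tested on simulated data. For ribosome-free RNA alone it recovered 93% of planted log2 changes of 1 and 100% of those of 2, with 5 false calls. The changes were planted only in genes with high counts and were alike in every pair. Recovery for genes of low counts, or for changes that differ between pairs, was not tested. Alternatives were no block, DESeq2 1.42.0, median-of-ratios factors, mitochondrially encoded genes left out, no filter, a stricter filter (5 CPM in 3 libraries), and each pair or library left out.

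The comparison, the 29 gene lists and the tests were chosen with earlier results of these data known. Named genes were 14 fixed genes, the 8 largest rises and 8 largest falls among called genes of at least 5 CPM with all pairs alike (filled by smallest p, no predicted genes or pseudogenes), and, of each list, the largest 2 changes that were called or else the smallest p. Other genes were named after their values were seen. A few genes that the rule or the lists hold are not reported here.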

Additional observations from a re-analysis of the deposited data

Results flagged for a closer look

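In 3 genes all ribosome-free pairs moved one way and all pairs of another kind of RNA the other way. The differences were not called by the interaction tests, so a difference between kinds of RNA is not shown. Acta2, smooth muscle actin, had a log2 fold change of 0.30 in ribosome-free RNA and of -0.91 in total RNA, where it went from 455 to 374, from 75.6 to 33.2 and from 80.4 to 33.5 CPM. Top2a, the mitotic topoisomerase, had 0.43 in ribosome-free RNA and -0.71 in total RNA, where it went from 654 to 648, from 536 to 252 and from 504 to 248 CPM. In both genes the ribosome-free rise of the tag 4 pair was the smallest of the 3 pairs. Rps27rt, the copy of Rps27, had 0.87 in ribosome-free RNA and -0.18 in heavy polysomes, where it went from 2.12 to 1.74, from 2.02 to 1.83 and from 4.35 to 4.01 CPM, a low level for a gene that shares sequence with Rps27.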

How the results depend on the processing

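Without the replicate block edgeR called 0 genes, 0 higher and 0 lower, where the paired fit called 15, 12 higher and 3 lower. Without a filter on low counts it called 182 (93 higher, 89 lower), with the stricter filter 19, with median-of-ratios factors or without mitochondrially encoded genes 11, and DESeq2 called 22 with 9 lower. Leaving out libraries, paired and unpaired, gave from 0 to 269 calls, from 0 to 104 higher and from 0 to 165 lower. Those with a pair left out were 72 without pair A, 18 without pair 2 and 269 without pair 4, and every unpaired fit with 1 library left out gave 0. The unpaired fit without pair 4 gave 0 as well. The cause of these differences was not tested. Of the comparisons of the named and called genes with an alternative, 614 kept direction and side of the threshold, 130 lost a call, 34 gained one and 46 changed direction. All changes of direction came with libraries left out, where log2 fold changes ran for Atf4 from -0.286 to 0.13, Ddit3 from -0.301 to 0.857, Trib3 from -0.144 to 2.12, Asns from -0.425 to 0.824, Chac1 from -0.567 to 0.687, Sesn2 from -0.04 to 0.458, Col1a1 from -1.091 to 0.25, Col1a2 from -0.559 to 0.393. For the next genes they ran for Col3a1 from -1.1 to 0.563, Fn1 from -0.831 to 0.794, Acta2 from -3.825 to 4.413, Eif3k from -0.071 to 0.8, mt-Nd6 from -1.993 to 3.907, mt-Rnr1 from -0.335 to 0.415, Mrps36 from -1.362 to 0.573, Cox6a1 from -1.231 to 0.428. For the rest they ran for Neat1 from -2.04 to 0.053, Col6a1 from -1.486 to 0.575, Lox from -1.663 to 0.523, Scd1 from -0.818 to 0.183, Oaz2 from -0.162 to 0.787. An unpaired fit with 1 library left out sets 2 tags against 3.

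List medians stayed within the spread of the pair medians in 138 of their comparisons with an alternative and moved further in 5, all with a pair left out, with ranges for mitochondrial synthetases from -0.042 to 0.146, interferon genes from -0.2 to 0.016, contractile genes from 0.035 to 0.149, iron and polyamine messages from 0.003 to 0.062. The tests of a difference between kinds of RNA ran from 0 to 5481 calls against total RNA with tags left out, from 0 to 1 against heavy and from 0 to 2 against light polysomes, and gave 0 under the other alternatives. The difference in mitochondrial share ran from -4.9 to 0.235 percentage points. Depth limits genes under about 1 CPM, such as Slc7a11 in vehicle, to a few counts a library.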

Other observations

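Some mitochondrially encoded mRNAs had levels that differed by orders of magnitude between libraries of 1 treatment. mt-Atp6 had 0.248, 101 and 1762 CPM in vehicle and 0.756, 146 and 2.72 CPM with halofuginone for tags A, 2 and 4, and mt-Co2 had 3.9, 20.2 and 4.83 CPM in vehicle and 0, 28.4 and 0.96 CPM with halofuginone. mt-Co3 was under 0.4 CPM in both vehicle libraries of tags A and 2 and at 195 CPM in the halofuginone library of tag 2.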
